A study of Caenorhabditis elegans with 28 samples.

Results

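10 hourly libraries of ebax-1 mutant larvae were compared, 4 from one phase of the larval cycle and 6 from the opposite phase, out of 28 small RNA libraries in the series. The mutant strain was HW3527, which carries the ebax-1(tm2321) allele on chromosome IV, and the wild type was N2. Both strains were grown at 25 °C without treatment from synchronised L1 larvae, and whole larvae of mixed tissues were harvested once per hour from 18 to 31 h. Phase A was made up of the mutant libraries of 18, 24, 25 and 31 h, and phase B, the opposite point of the cycle, of those of 20, 21, 22, 27, 28 and 29 h. The libraries were chosen by hour alone, using a cycle of 7 h and the delay of 3 h that the study took from the mRNA of these samples, which was not used here. The mutant libraries of 19, 23, 26 and 30 h fell between the phases and entered no phase comparison. In wild type the matching hours were 21, 22, 28 and 29 h for phase A and 18, 19, 24, 25, 26 and 31 h for phase B, again 10 libraries.

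A miRNA hairpin is cut into a duplex of a 5p and a 3p arm. One arm, the guide, is loaded into an Argonaute protein and can stay there for a long time, whereas the other arm, the passenger, is released and degraded, so that passenger levels follow production more closely. EBAX-1, the nematode counterpart of ZSWIM8, brings substrates to a ubiquitin ligase of the Cullin-RING type and is needed for the decay of some miRNAs. In the target-directed miRNA degradation of mammals and flies, Argonaute is destroyed and the bound guide lost. Per the study, placing decay by EBAX-1 under this mechanism rests on analogy alone. C. elegans larvae molt once per larval stage, and many transcripts of the epidermis and other tissues rise and fall once per stage.

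Counts were available for 437 annotated arms, of which 382 had a read in at least 1 of the 10 libraries. Library totals ran from 6125674 to 9733557 counts in phase A and from 4970366 to 8926354 in phase B, and a library held reads of 316 to 337 arms in phase A and of 312 to 343 in phase B. The 3 smallest totals were those of 28, 29 and 31 h, and miR-62, a miRNA spliced from an intron, stood at 301, 647 and 754 normalised counts there against 1235 to 3129.9 in the other 7 libraries. miR-58a-3p, a member of the bantam family, made up 6.67% and 7.29% of the counts at 28 and 29 h and 10.4% to 14.3% in the others. Guides marking tissues were counted in every library, and their summed shares overlapped between the phases, at 4.24% to 7.01% in phase A and 4.398% to 6.87% in phase B for muscle (miR-1), 1.005% to 1.48% and 1.09% to 2.05% for glia (miR-228), 1.80% to 5.01% and 2.33% to 5.42% for epidermis (4 let-7 family miRNAs), 0.00729% to 0.0342% and 0.0125% to 0.0258% for intestine (3 miRNAs) and 0.00695% to 0.0136% and 0.00620% to 0.0133% for neurons (3 miRNAs). The epidermis share includes let-7-5p, which went from 3716 normalised counts at 18 h to 151303 at 31 h, so it does not track epidermal content alone. The intestine share includes miR-786-3p, which went from 4.24 normalised counts at 18 h to 200.5 at 31 h. The study cites promoter activity of miR-240 and miR-786 in spermatheca or uterus, among other cells. The intestine share therefore does not track intestinal content alone. The part of these library and tissue differences in the results below was not tested. In whole larvae, fewer cells of a type and fewer miRNA molecules per cell cannot be told apart. The genotype rests on the labels, since ebax-1 mRNA was not analysed here.

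A few passenger arms separated the phases in the mutant, and guide arms mostly did not. With a linear hour term, limma called 8 of 382 arms (2.09%) at a Benjamini-Hochberg adjusted p below 0.05, 7 higher and 1 lower in phase A. Of these 8, 6 were passengers, defined as the arm of a hairpin with the lower mean over the 14 mutant libraries. The other 2, miR-41-5p and miR-255-5p, were guides by count, whereas the study treats the 3p arm of both hairpins as the guide. Higher in phase A were miR-237-3p, miR-39-5p, miR-40-5p, miR-255-5p, miR-41-5p, miR-79-5p and miR-75-5p, and lower was miR-71-3p. An unadjusted p below 0.05 was found for 34 arms (8.9%), 26 of them passengers, 8 guides and 0 from hairpins with a single counted arm. Only miR-237-3p also passed an adjusted p of 0.01. The other 7 shared an adjusted p of 0.0478, close to the threshold, and scaling by TMM or DESeq2 size factors left 1 and 3 calls, all higher in phase A. Without any 1 library of 18, 20, 21, 22, 24, 25 or 29 h only miR-237-3p was called. Without 28 h there were 2 calls, both among the 8, and without 31 h and 27 h there were 8 and 9, of which 6 each were among the 8. A block for the larval cycle left 3 calls, miR-237-3p, miR-40-5p and miR-71-3p. Assuming a delay of 2 h instead of 3 h, 2 arms were called, miR-235-5p and miR-74-5p, and none of the 8, and assuming 4 h, 8 arms were called, 3 of them shared. Each hour is 1 library with no replicate culture, so these p-values measure the spread of single libraries around a line, which may be technical.

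The largest called difference belonged to miR-237-3p, the passenger of a paralogue of lin-4 whose hairpin lies between protein-coding genes on chromosome X, 8154084 to 8154182, plus strand, in the WBcel235 annotation of Ensembl. It had normalised counts of 1829.6, 3332, 2221 and 2026 at the 4 hours of phase A, and a lowest, median and highest value of 299.5, 516 and 780.2 in phase B. Every phase A library was above every phase B library, with a difference of 2.16 ± 0.26 on the log2(normalised count + 8) scale (SE, n = 4 and 6; 95% interval 1.59 to 2.74) and a limma adjusted p of 0.00328. The difference was 2.69 in the first cycle, from 18 and 24 h against 20 to 22 h, and 1.64 in the second, from 25 and 31 h against 27 to 29 h. It kept its call in each of the 10 fits that left out a library and in 13 of 15 other alternatives. The exceptions were the delays of 2 h and 4 h, at which its difference was 1.398 (adjusted p = 0.505) and 1.27 (adjusted p = 0.223), so that its call depends on the assumed delay of 3 h. Its guide, miR-237-5p, had 166613, 201867, 341234 and 306530 normalised counts in phase A and 161885, 249396 and 428371 in phase B as lowest, median and highest. The guide phases overlapped throughout, with a difference of -0.04 ± 0.21.

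**Figure D1:**
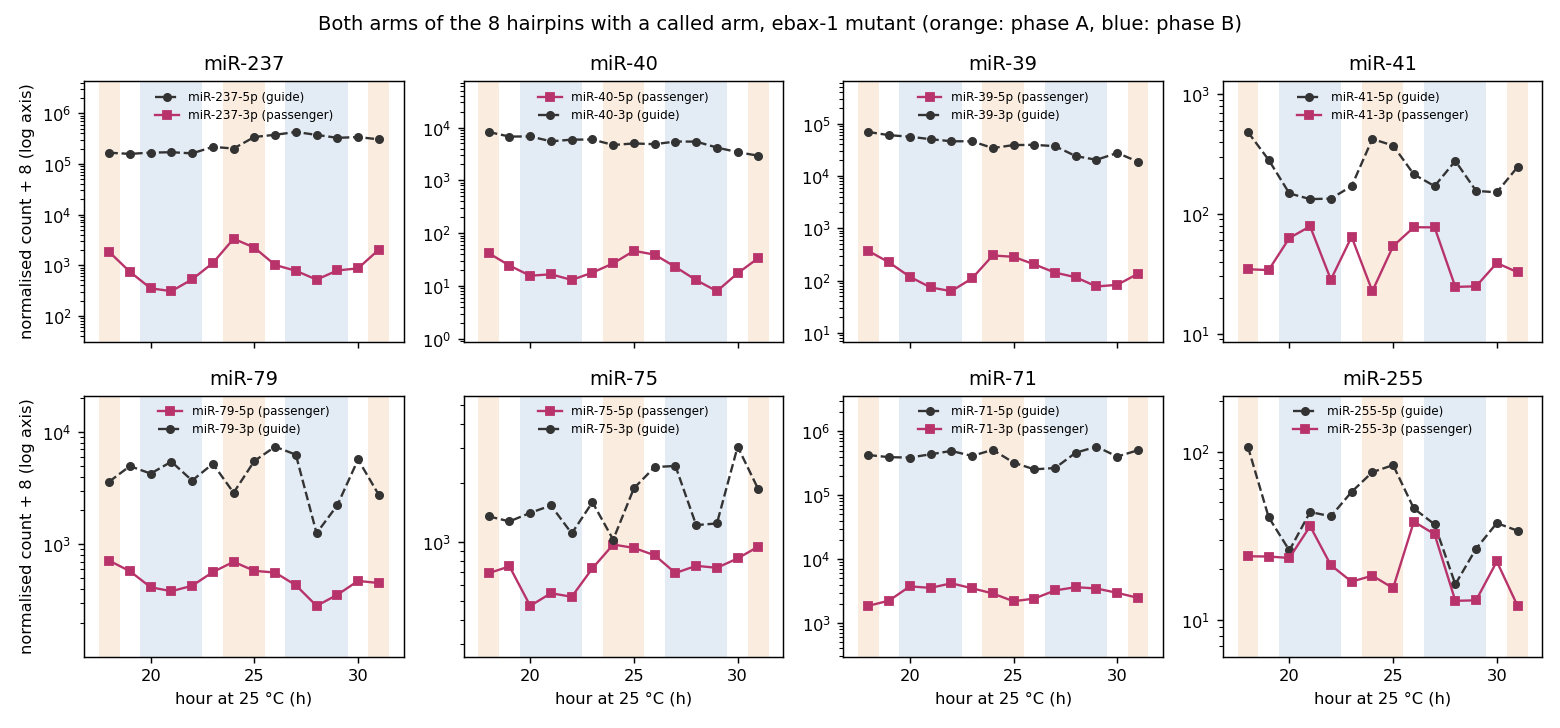
Normalised count plus 8 (log axis) of the guide arm (circles, dashed) and the passenger arm (squares, solid) against hour (h) in the 14 mutant libraries, for the 8 hairpins with a called arm, with hours of phase A shaded orange and of phase B blue. miR-237-3p runs from 299.5 at 21 h to 3332 at 24 h, and miR-237-5p from 161885 at 22 h through 201867 at 24 h to 428371 at 27 h.

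Of the called arms, 3 came from the mir-35 family, miRNAs that embryos need and that larvae clear after hatching in an EBAX-1-dependent manner. Their seed-bearing arm is the 3p arm. The 7 hairpins of mir-35 to mir-41 lie side by side on chromosome II, 11537608 to 11538404, plus strand, and the annotated gene Y62F5A.9 runs across them in antisense with an intron there. mir-42 lies elsewhere on that chromosome, at the start of a cluster with mir-43 and mir-44 that spans 308 bp, 11889811 to 11890118, plus strand.

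miR-39-5p had 360.2, 294, 276 and 127 normalised counts in phase A and 54.6, 88.2 and 134 as lowest, median and highest in phase B. The 31 h library overlapped with phase B, and the difference was 1.44 ± 0.30 (adjusted p = 0.0478). miR-40-5p, at 33.9, 18.9, 38.4 and 25.9 in phase A, stayed above the phase B libraries, whose lowest, median and highest values were 0, 6.36 and 14.98. The value of 0 at 29 h allows up to 3 counts, a normalised count of 5.04. Its difference was 1.36 ± 0.26 (adjusted p = 0.0478), and it was 2.28 with a pseudocount of 1 and 0.65 with a pseudocount of 32. miR-41-5p had 477, 416, 365 and 239 in phase A against 125, 144 and 269 in phase B, where the highest value came from 28 h and was the only one above 31 h. The difference was 1.17 ± 0.25 (adjusted p = 0.0478). In the mir-41 hairpin the 5p arm was counted more often than the 3p arm, which made it the guide by count although it is not the arm with the family seed.

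The same direction was measured for most other 5p arms of the family. miR-36-5p differed by 1.05 ± 0.28 (adjusted p = 0.105), miR-42-5p by 1.17 ± 0.27 (0.0569), miR-37-5p by 0.71 ± 0.26 (0.305) and miR-35-5p by 0.62 ± 0.20 (0.230), and none of these passed the test. miR-38-5p never exceeded 4.85 normalised counts in either phase. Of the 8 passengers by count, which hold miR-41-3p in place of miR-41-5p, 2 passed as higher in phase A, 0 as lower and 6 did not pass, with a median difference of 0.88 against 0.01 over all 382 arms. Of the 8 guides, 1 passed, miR-41-5p, and the median was -0.15. miR-39-3p, with 69151, 34056, 38882 and 18722 normalised counts in phase A and 20313, 41513 and 56216 in phase B, differed by -0.01 ± 0.13 as it fell through the window in both phases.

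Beyond mir-42, the other hairpins of its cluster moved in the same direction in their 5p arms without passing the test. miR-43, of the mir-2 family, had 506, 748, 644 and 412 normalised counts of its 5p arm in phase A against 122, 258 and 419 in phase B, a difference of 1.13 ± 0.30. miR-44-5p had 4354, 6776, 3807 and 4984 against 1615, 2311 and 3830.2, a difference of 0.99 ± 0.26, and both had an adjusted p of 0.105. One library overlapped between the phases in each of the 2 arms, 31 h for miR-43-5p and 25 h for miR-44-5p, whereas miR-42-5p, at 893, 1296, 623 and 595 against 258, 344 and 513, did not overlap. The 3p arms of the 3 hairpins differed by -0.15, 0.04 and -0.09, and none passed. miR-44-3p and miR-45-3p share their mature sequence, and reads were allowed many hits, so those counts cannot be assigned to 1 hairpin.

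**Figure D2:**
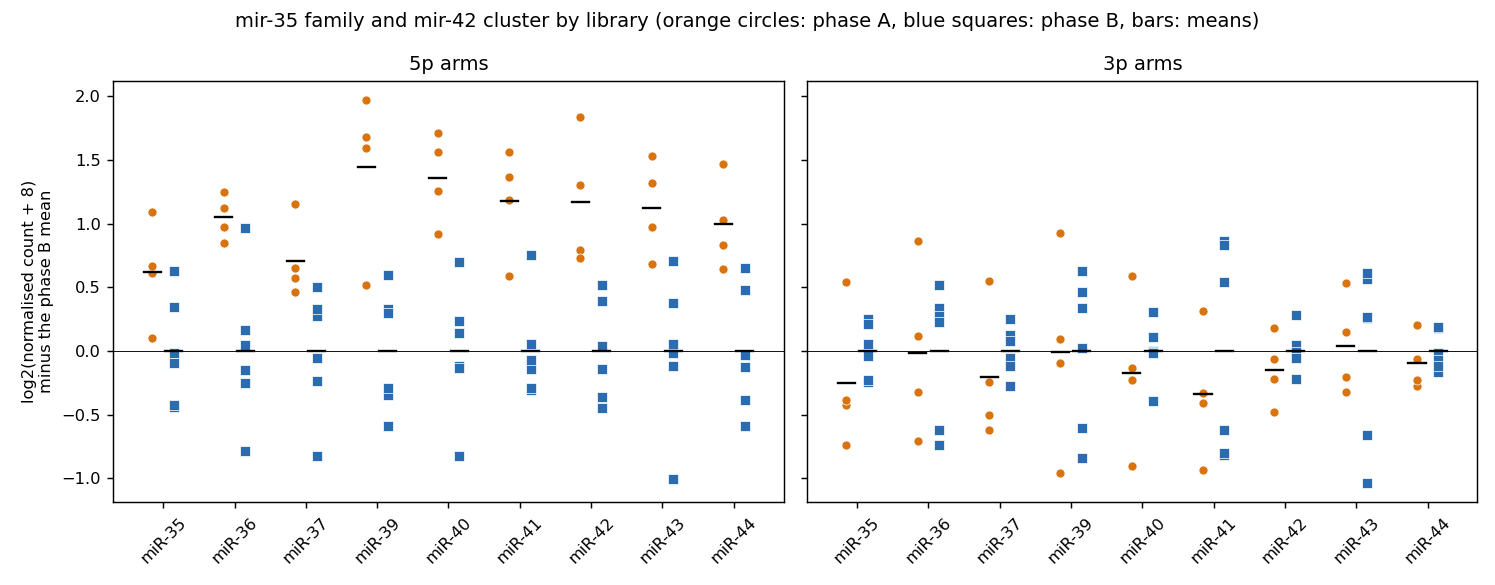
Log2(normalised count + 8) of each mutant library of the 2 phases minus the phase B mean of the arm, for 5p arms (left) and 3p arms (right) of the mir-35 family and the mir-42 cluster, with phase A as circles, phase B as squares and phase means as bars; miR-38, whose 5p arm did not exceed 4.85 normalised counts in these 10 libraries, is not drawn. Phase A means of the 5p arms sit between 0.62 (miR-35) and 1.44 (miR-39), and those of the 3p arms between -0.34 (miR-41) and 0.04 (miR-43).

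miR-79, the nematode counterpart of miR-9, and miR-75 share a seed, and the passengers of both were called. miR-79-5p had 708, 691, 573 and 445 normalised counts in phase A and 276, 391 and 425 in phase B. The phases did not overlap, and the difference was 0.67 ± 0.13 (adjusted p = 0.0478). miR-75-5p had 683, 959.9, 922 and 937 in phase A and 463, 611 and 746 in phase B, so that 18 h lay within phase B while the difference with the hour term was 0.52 ± 0.11 (adjusted p = 0.0478). The guides miR-79-3p and miR-75-3p differed by 0.07 ± 0.40 and 0.04 ± 0.24. miR-79-3p also had the wider spread, from 1247 at 28 h to 6243 at 27 h within phase B alone.

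miR-71-3p was the only arm called lower in phase A. It is the passenger of miR-71, which acts in longevity and in survival of starvation and whose hairpin lies in an intron of ppfr-1 on the same strand. Its normalised counts were 1847, 2890.0, 2181 and 2465 in phase A and 3223, 3583 and 4171 in phase B. No library overlapped, and the difference was -0.64 ± 0.14 (adjusted p = 0.0478), at -0.72 in the first and -0.56 in the second cycle. Its guide, miR-71-5p, had 426162, 513832, 324345 and 506288 against 266595, 450135 and 576176, a difference of 0.03 ± 0.22.

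The remaining called arm, miR-255-5p, was low, at 99.6, 67.8, 75.5 and 25.9 normalised counts in phase A and 8.27, 23.8 and 35.9 in phase B. Its 31 h library lay within phase B, and the difference was 1.202 ± 0.26 (adjusted p = 0.0478). The 3p arm of this hairpin, its passenger by count, differed by -0.34 ± 0.25. The study treats this 3p arm as the guide.

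The phases did not overlap in normalised counts for 7 of 382 arms (1.83%), all of them passengers. These were 4 of the called arms, miR-237-3p, miR-40-5p, miR-79-5p and miR-71-3p, together with miR-42-5p, miR-80-5p and miR-360-3p. miR-80-5p, of the bantam family, had 3657, 4458, 3599 and 4250 normalised counts in phase A against 2224, 2828 and 3423 in phase B (difference 0.51 ± 0.14, adjusted p = 0.122). miR-360-3p was counted in 1 phase A library, at 1.24, and stayed at or below 5.05 in phase B, near the level of 3 counts. miR-58a-5p, of the same bantam family, came closest to the threshold from outside, at 6418, 7594, 9811 and 10381 against 4698, 6059 and 7383 (difference 0.50 ± 0.11, adjusted p = 0.0536), and was named after its values were seen. The difference had 1 sign in both 5-library cycles in 167 of 382 arms (43.7%), in 82 of 156 passengers (52.6%) and in 69 of 188 guides (36.7%). All 8 called arms had 1 sign in both cycles. The cycles are parts of the same 10 libraries that gave the calls, so this is no separate test of them.

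Setting the arms of each hairpin side by side put the weight on the passengers. In the 91 hairpins with both arms at 10 or more normalised counts, the passenger difference was larger in size than the guide difference in 65 and smaller in 26. Its median size was 0.23 in passengers and 0.08 in guides. Residual spread was also larger in passengers, with a median SD of 0.34 against 0.26, and the median ratio of difference to residual SD was 0.66 against 0.27. The arms of a hairpin had the same sign in 40 hairpins and opposite signs in 51. Among arms averaging at least 50 normalised counts, 19 of 72 passengers and 5 of 118 guides had an unadjusted p below 0.05, and 5 passengers and 1 guide passed the adjusted threshold.

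The guide to passenger ratio within each library was called by limma in 13 of these 91 hairpins (14.3%), lower in phase A in 10 and higher in 3, and 23 had an unadjusted p below 0.05. Without the 18 h library 6 were called, all among the 13. In mir-237 the ratio was 106 in phase A and 488 in phase B, as means on the log2 scale, a difference of -2.20 ± 0.29 (adjusted p = 0.000725). This ratio and all those below have 8 added to the normalised count of both arms, which lowers them where the passenger is low. For miR-40-5p the phase B mean, 6.90, was smaller than the added 8. Ratios of the mir-35 family fell from 388 in phase B to 142 in phase A for mir-39, from 386 to 134 for mir-40, from 644 to 308 for mir-36 and from 287 to 152 for mir-37. In the mir-42 cluster, ratios fell from 2.61 to 1.05 for mir-42, from 4.81 to 2.26 for mir-43 and from 156 to 73.5 for mir-44. The ratio of mir-44 kept its call in 5 of 10 fits without 1 library, and that of mir-43 in 6. The guide counts of mir-44 cannot be told from those of miR-45-3p, so its ratio is not that of 1 hairpin. In mir-42 and mir-43 the guide rests on the strain. By the wild-type means the 5p arm is the guide, and their ratios then count as higher in phase A, so that 5 of the 13 called ratios were higher and 8 lower. lin-4 and mir-52 made up the 10 by the mutant means, with 49.0 and 75.7 in phase B and 20.2 and 43.2 in phase A. In each of these 10 hairpins the guide difference was between -0.20 and 0.04 while the passenger difference ran from 0.67 to 2.16.

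A higher ratio in phase A was called in 3 hairpins. In mir-255 it was 4.10 in phase A and 1.41 in phase B (difference 1.55 ± 0.26, adjusted p = 0.00355), and its guide was the arm that differed. mir-788 went from 1.91 in phase B to 3.89 in phase A (1.03 ± 0.24, adjusted p = 0.0129), also with the larger difference in the guide. mir-239a went from 32.5 to 68.5 (1.07 ± 0.33, adjusted p = 0.0489) through miR-239a-3p, the passenger, at 104, 173, 124 and 147 normalised counts in phase A against 139, 273 and 460.4 in phase B. That ratio lost its call in 7 of 10 fits without 1 library.

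**Figure D3:**
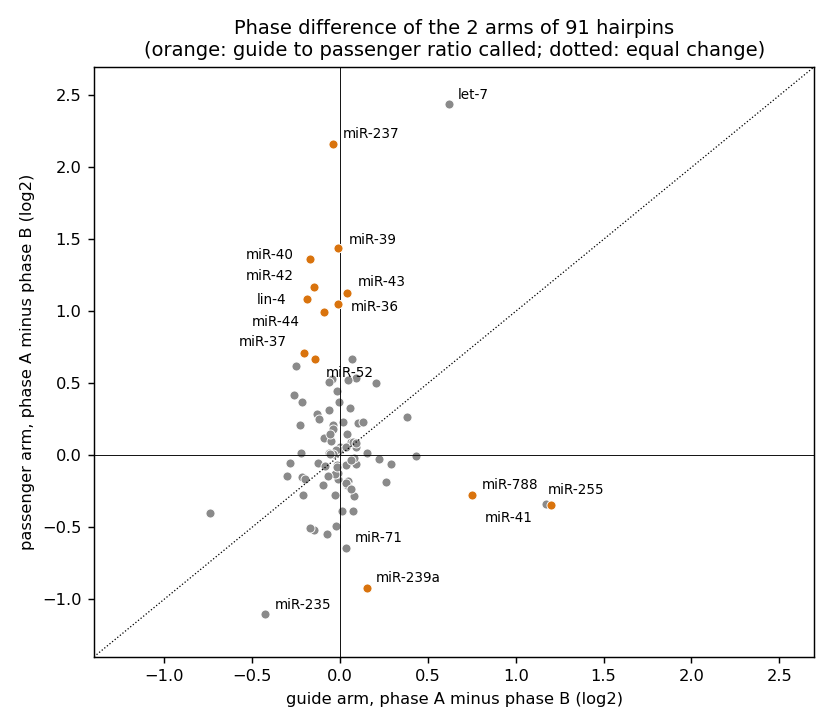
Difference of phase A minus phase B (log2) of the passenger arm (vertical axis) against that of the guide arm (horizontal axis) in 91 hairpins, 1 point each, with called ratios in orange and a dotted line of equal change. The points spread along the vertical axis: miR-237 lies at -0.04 for its guide and 2.16 for its passenger. Only miR-255, miR-41, miR-788 and let-7 have differences above 0.6 in the guide by count.

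The timing miRNAs lin-4 and let-7 showed large passenger differences that did not pass the test. lin-4, which ends the first larval programme, had 236, 113, 239 and 81.9 normalised counts of lin-4-3p in phase A against 26.3, 65.1 and 178 in phase B, a difference of 1.09 ± 0.45 (adjusted p = 0.447). lin-4-5p, the guide, had 3859, 2674, 3859 and 2745 against 3040 to 4897, with a median of 3628, and differed by -0.19 ± 0.17. let-7, which drives the change to adult fates, had 64.6, 1827, 2667 and 979.5 of let-7-3p in phase A against 19.4, 134 and 1249.9 in phase B. That difference of 2.44 ± 0.91 exceeded that of miR-237-3p in size, but its error was larger and its adjusted p was 0.318. The guide let-7-5p rose from 6638 at 22 h through 12559 at 23 h to 82146 at 24 h. It stood at 95626 at 27 h, 199868 at 28 h, 198383 at 29 h, 103242 at 30 h and 151303 at 31 h. The libraries of 28, 29 and 31 h had the smallest totals, and whether their higher values are technical was not tested. A straight line over hours described let-7-5p poorly, and its difference was 0.62 ± 0.55. Of the 7 let-7 family arms taken as guides, which include the single counted arm of mir-793, none passed (median 0.09). Of 6 passengers none passed (median 0.19). In mir-241 the guide by count was the 3p arm, whereas the study treats the 5p arm as the guide. Without the libraries of 28, 29 and 31 h, however, limma called let-7-5p at 1.53 (adjusted p = 0.0279), let-7-3p at 2.74 (adjusted p = 0.00728) and miR-84-3p, a passenger of the family, at 0.68 (adjusted p = 0.0406).

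Besides the mir-35 family, the study linked 4 hairpins to EBAX-1, mir-71, mir-235, mir-247 and mir-788, and of these 4 only mir-71 had a called arm, its passenger. miR-235-3p, the guide of the miR-92 orthologue that keeps neuroblasts quiescent in starved larvae, had 138581, 160615, 188605 and 283007 normalised counts in phase A and 219463, 232063 and 318434 in phase B. Of the phase A libraries, 3 were below every phase B library and that of 31 h was not, and the difference was -0.43 ± 0.13 (adjusted p = 0.165). miR-235-5p, the passenger, had 8.48, 6.01, 18.6 and 0 against 9.10, 24.1 and 57.1, a difference of -1.10 ± 0.43 (adjusted p = 0.373). miR-788-3p had 5014, 3729, 3551 and 1517 against 1464, 1916 and 2423, a difference of 0.75 ± 0.27 (adjusted p = 0.305). It was the arm of mir-788 counted more often here, whereas the study treats the 5p arm as the guide, and miR-788-5p differed by -0.27 ± 0.19 (adjusted p = 0.850). miR-247-3p differed by -0.05 ± 0.34, and miR-247-5p stayed at or below 6.01 normalised counts. Of the 4 guides none passed, with either arm of mir-788. The list was chosen by the study partly on these samples and is not independent evidence.

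Other families added no called arm. Of the mir-51 family, needed in embryos, all 6 guides were negative (median -0.17) and 5 of 6 passengers positive (median 0.39), led by miR-52-3p at 1520.2, 1198, 1204 and 609.8 normalised counts in phase A against 560.4, 651 and 876 in phase B (0.67 ± 0.19, adjusted p = 0.122). Passengers of the bantam family had a median of 0.25 with 4 of 5 positive, and its guides a median of -0.01. The 3 passengers of the mir-72 family differed by -0.52 to 0.15, and the medians of the mir-63/64 family were 0.09 in 5 guides and 0.01 in 5 passengers. Guides or single counted arms of mir-357, mir-358 and mir-359, which rise late in the window, had a median of -0.21. Those of 4 hairpins listed as mirtrons had a median of 0.10, and none of these arms passed. In the annotation used, mir-1018, listed as a mirtron, lies between protein-coding genes. In the mir-46 family the medians were 0.03 in guides and 0.06 in passengers, with 2 arms each. The mir-44 and mir-2 families, which hold the miR-44 and miR-43 described above, had passenger medians of 0.09 and 0.05 and guide medians of -0.08 and -0.01, over 4 hairpins each.

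Wild-type libraries at the matched hours gave differences of the same sign for all 8 called arms. limma called 0 of 398 arms (0%) for a different phase effect in the 2 strains, 19 (4.77%) had an unadjusted p below 0.05, and edgeR and DESeq2 also called 0. For miR-237-3p the difference was 2.24 ± 0.29 in wild type, and the mutant minus wild type difference was -0.07, with a 95% interval from -0.94 to 0.80. miR-79-5p gave 0.77 ± 0.13 in wild type (strain difference -0.11, -0.48 to 0.27), miR-39-5p 1.92 ± 0.46 (-0.48, -1.73 to 0.77), miR-40-5p 1.14 ± 0.38 (0.22, -0.82 to 1.27), miR-41-5p 1.48 ± 0.29 (-0.31, -1.16 to 0.55) and miR-255-5p 1.71 ± 0.29 (-0.51, -1.39 to 0.38). miR-75-5p, at 0.12 ± 0.16 in wild type, and miR-71-3p, at -0.29 ± 0.26, were nearer to 0 there, with strain differences of 0.40 (0.00 to 0.80, adjusted p = 0.977) and -0.35 (-1.003 to 0.30, adjusted p = 0.977). These intervals leave room for differences of up to 1.73 between strains.

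The guide miR-235-3p had a phase difference of -1.86 ± 0.35 in wild type and -0.43 ± 0.13 in the mutant, a strain difference of 1.44 with a 95% interval from 0.61 to 2.27. Its limma adjusted p was 0.399. When wild type at 28 h was left out, it was 1.81 ± 0.26 with an adjusted p of 0.00173, and the low-count arm miR-360-3p was called as well, at -0.82 ± 0.16 (adjusted p = 0.0297). No other left-out library gave a call. Within 8 pairs of libraries 3 h apart, 3 of phase A and 5 of phase B, the strain difference of miR-235-3p was 1.51 ± 0.36 (adjusted p = 0.325), and limma called 0 arms, with 25 at an unadjusted p below 0.05. The passenger miR-235-5p differed by -1.56 ± 0.34 in wild type, a strain difference of 0.46 (-0.79 to 1.71, adjusted p = 0.977). From this time course the study reported raised levels and a smaller rhythm of the miR-235 and miR-71 guides in the mutant. It reported these effects again in a later time course. Its test took strain effects on level and course together over matched hours, unlike the strain difference in phase given here. The lack of calls here is therefore no test of that report. Strain and culture cannot be told apart.

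**Figure D4:**
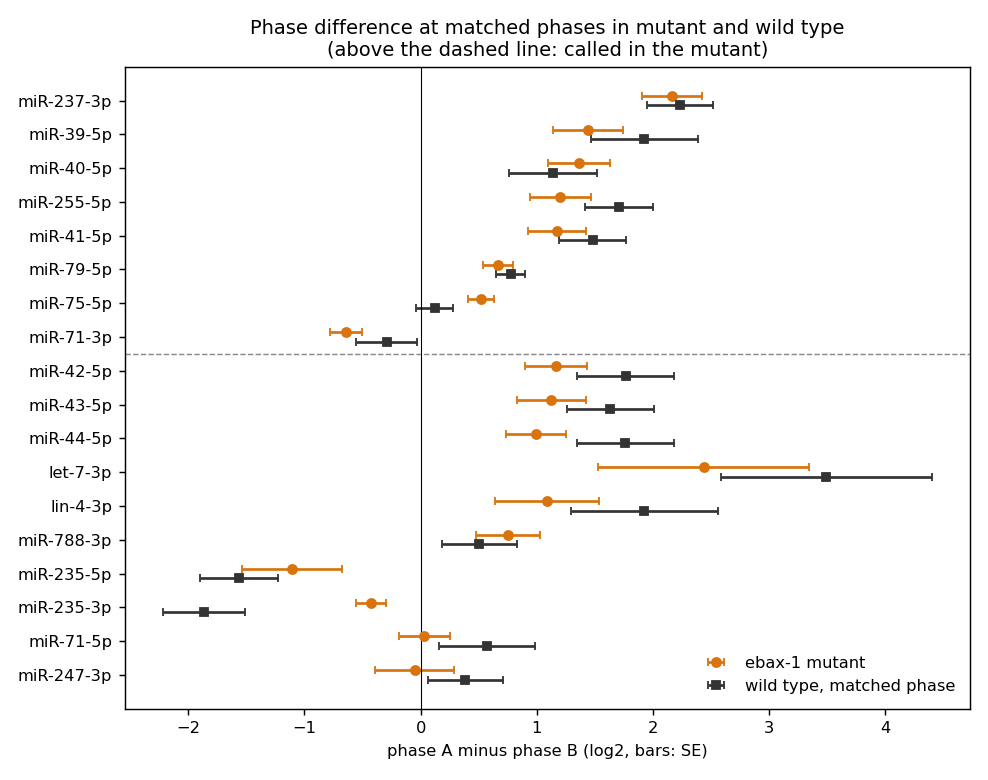
Phase A minus phase B (log2, points, with SE bars) in the mutant (orange circles) and in wild type at the matched phase (dark squares), for the 8 called arms above the dashed line and 10 arms of the families described below it. Each called arm has 1 sign in both strains, and miR-235-3p stands at -0.43 in the mutant and -1.86 in wild type.

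A cosine of 7 h fitted to all 14 mutant libraries, which includes the 10 above and the 4 between the phases, found rhythm again mostly in passengers. limma called 23 of 391 arms (5.88%), of which 11 passed an adjusted p of 0.01, all passengers. The 23 held 20 passengers and 3 guides by count, miR-788-3p, miR-255-5p and miR-235-3p. The study's guide is the 5p arm in mir-788 and the 3p arm in mir-255, so of these only miR-235-3p is a guide there. Of the 8 arms called between phases, 7 were among them and miR-41-5p was not (adjusted p = 0.0781). Amplitudes, the height of the curve above its middle, were 1.26 for miR-237-3p, 1.15 for miR-235-5p, 1.11 for lin-4-3p and 0.94 for miR-40-5p, and 0.27 for miR-235-3p, the smallest of the called arms. The call of miR-235-3p was kept in only 2 of the 14 fits that left out 1 library. Peaks of 19 arms fell between 22.8 and 25.6 h, nearer to 24.5 h, the middle of phase A, than to a middle of phase B. The 3 passengers of the mir-42 cluster peaked at 23.7 to 24.1 h and the called mir-35 family passengers miR-36-5p, miR-40-5p, miR-39-5p and miR-35-5p at 25.0 to 25.4 h.

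The other 4 arms, miR-235-3p at 21.4 h, miR-71-3p at 21.6 h, miR-235-5p at 26.9 h and miR-74-5p at 27.0 h, peaked nearer to phase B. lin-4-3p at 25.6 h, miR-788-3p at 25.6 h, miR-45-5p at 22.8 h and miR-72-3p at 22.9 h peaked between the sampled phases, and none of these was called by the comparison of A with B. Leaving out 22 h reduced the count to 14, and leaving out 24, 25 or 26 h to 15. The libraries shared by this fit and the phase comparison make the calls of both dependent on the same values.

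**Figure D5:**
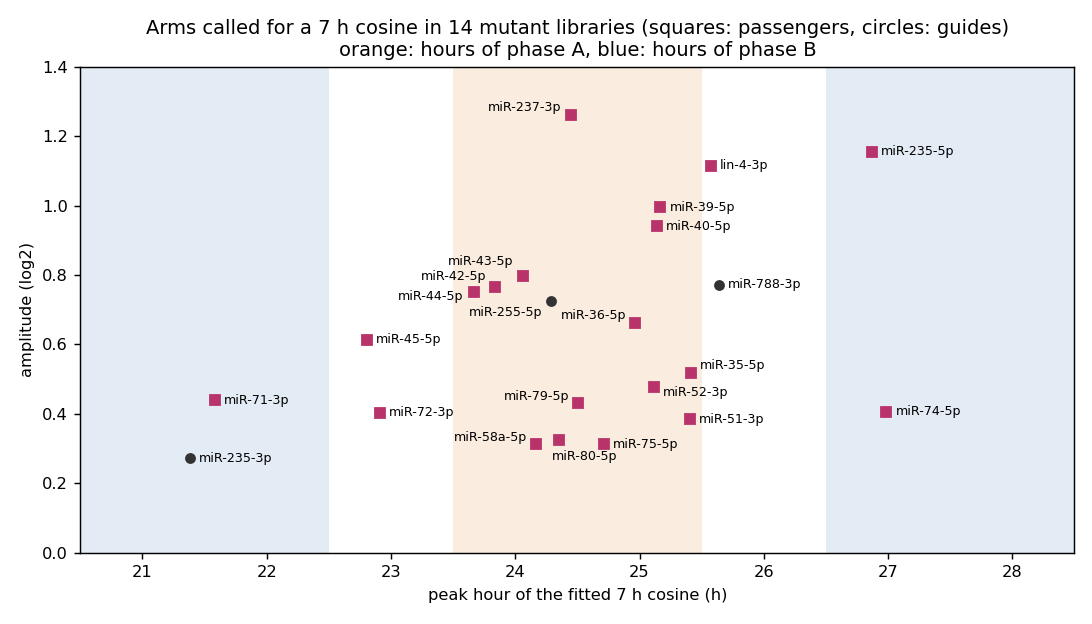
Amplitude (log2) against peak hour (h) of the 23 arms called for a 7 h cosine in the mutant, with passengers as squares, guides as circles, hours of phase A shaded orange and of phase B blue. miR-237-3p has the largest amplitude, 1.26, with its peak at 24.4 h, and miR-71-3p peaks at 21.6 h.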

How the data were processed

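Single-end small RNA reads came from 28 libraries of whole larvae, 14 per strain. Per the study's methods, the authors aligned trimmed reads with Bowtie through QuasR to ce10, allowing many hits per read, and counted same-strand reads whose 5′ end lay within 3 bp of that of an arm in miRBase v22, lifted to ce10 (Bowtie and QuasR versions: not given in the sources used here). The deposited counts were whole numbers for 437 arms. The deposited log2 values were these counts scaled to the mean library total (the normalised count used here) and taken to log2 after adding 8. Recomputed values agreed within 0.0005. Each value is therefore a share of all counted reads, and adding 8 holds down the differences of low arms.

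The log2 values were fitted with limma 3.58.1 in R 4.3.3, with terms for phase and a linear hour. Both phases had a mean hour of 24.5, and arms with a read in the fitted libraries were tested together with Benjamini-Hochberg adjustment. Strain terms for intercept, hour and phase were added for the comparison with wild type. The guide to passenger ratio used arms that both averaged at least 10. Library depth ran from 4970366 to 9733557 counts in the 10 libraries, intervals cover the spread of libraries, and no 2 libraries were identical. Alternatives were TMM, edgeR 4.0.16 quasi-likelihood, DESeq2 1.42.0, other pseudocounts, filters, hour terms, delays and periods, and each library left out. Chosen after seeing the data were a block for the larval cycle and pairs of mutant and wild-type libraries 3 h apart. The calculations were tested on simulated data.

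The libraries, lists and tests were chosen with earlier results of these data known. Named were called arms averaging at least 50 in a phase (up to 15 each way), called list members or otherwise the largest difference, up to 5 called ratios each way, up to 10 arms called by strain, and both arms of mir-235, mir-71, let-7, lin-4, mir-788 and mir-247. Other members of the mir-35 family and mir-42 cluster, further called ratios, arms called for rhythm, miR-58a-5p and miR-360-3p were added after their values were seen.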

Additional observations from a re-analysis of the deposited data

Results flagged for a closer look

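Among 60 groups of an arm and a phase, 3 held a library far from the rest by Dixon's ratio, a rule that flags about 1 in 20 groups by chance. miR-41-5p stood at 269 normalised counts at 28 h in phase B, where the next library had 163. miR-75-5p stood at 683 at 18 h in phase A, and the nearest library there had 922. let-7-5p stood at 3716 at 18 h, before its rise, and the nearest phase A library had 82146.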

How the results depend on the processing

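The count of 8 arms called between phases changed to 1 with TMM factors, a pseudocount of 1, edgeR, a threshold of 0.01 or no hour term, to 2 with a delay of 2 h, 3 with DESeq2 size factors, 3 with the larval cycle as a block, 4 with trended robust moderation and 18 with DESeq2, which held all 8. Leaving out 1 library gave 1 to 9. With a quadratic hour term 11 were called, 7 of them shared, and without 28, 29 and 31 h 10 were called, 6 of them shared. The 13 called ratios became 4 at a threshold of 0.01, 6 with a delay of 2 h and 7 with a delay of 4 h, and 6 to 15 without 1 library. With a delay of 2 h, the ratio difference changed sign in mir-788 (-0.026) and in lin-4 (0.11). The 23 arms called for rhythm became 11 at a threshold of 0.01, 0 with a period of 6 h, where 33 had an unadjusted p below 0.05, 25 with a period of 8 h, 19 of them shared, and 29 with a quadratic hour term, which held all 23, and 14 to 23 without 1 library. Calls for a strain difference ran from 0 to 2 without 1 library, and were 0 in the other alternatives. The cause of these changes was not tested. None of the 8 called arms changed sign under the alternatives run. Libraries could not be paired by replicate number, since the labels give none. Formed from the hours instead, the larval cycle as a block and pairs of mutant and wild-type libraries 3 h apart, both chosen after seeing the data, gave the 3 calls above, 13 called ratios and 0 calls for a strain difference. Depth limits arms near 3 counts, which correspond to normalised counts of 2.58 to 5.04 across the 10 libraries.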

Other observations

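The 4 mutant libraries between the phases had 734 (19 h), 1100.0 (23 h), 1005 (26 h) and 862 (30 h) normalised counts of miR-237-3p, above the phase B median of 516 and below every phase A library. miR-71-3p had 2231, 3490.5, 2401 and 2956 at these hours. let-7-3p had 62.6, 741, 1602 and 274.1, and miR-788-3p had 4367, 1113, 3304 and 1089. With a quadratic hour term the calls included let-7-3p (3.13, adjusted p = 0.0341 in limma) and the guides miR-357-3p (-0.79) and miR-358-3p (-0.65, both with the same adjusted p). Phase A holds both ends of the window, so that a curved trend over hours and the phase cannot be fully told apart.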
